A study of Homo sapiens with 12 samples.

Results

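A set of 10 genes that move cholesterol out of the cell, out of the lysosome and into storage were followed through 12 bulk RNA-seq libraries of human iPSC-derived microglia (iMGLs). The genes were taken by name from the 62703 gene identifiers of the deposited table, and all 10 were found there, once each. They are the nuclear receptors NR1H3 and NR1H2, the exporters ABCA1 and ABCG1, the ubiquitin ligase MYLIP, the lipoprotein receptor SCARB1, the lysosomal genes LIPA, NPC1 and NPC2, and the esterifying enzyme SOAT1.

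The cells came from WTC11, a long-used line of human induced pluripotent stem cells, in which CRISPR editing by non-homologous end joining had given 3 control clones (WT, clones J, K and L) and 3 clones without a functional lactamase B gene (LACTB KO), named A, B and C. Every clone was taken through 2 differentiations, so that each genotype had 6 libraries, and a library is written here as the clone letter and the number of the differentiation (J2 is clone J, differentiation 2). All cells passed through hematopoietic precursors, were grown in medium with IL34, TGFb and MCSF, received CX3CL1 and CD200 for the last days of culture, and had no other treatment. Per the labels, differentiation is a batch, and the 2 libraries of a clone share that clone, so genotypes were compared over 3 clones against 3 clones. Libraries summed to between 24153233 and 28406943 estimated counts, and levels are given as CPM, the counts scaled to library size with TMM factors. LACTB had 71.6 to 98.1 CPM in WT libraries, 7.49 to 9.78 CPM in clones A and C and 44.4 and 51.6 CPM in clone B, so clone B kept part of the transcript. Over 3 clones against 3 the log2 fold change of LACTB was -1.87 ± 0.67 (edgeR adjusted p = 0.735), and without clone B it was -3.20 (adjusted p = 0.0157). Clone B is singled out here by its LACTB level, so the lower p without it follows from that choice. A transcript level does not show whether the edited allele makes protein.

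Microglia, like other macrophages, take up cholesterol with lipoproteins, myelin and dying cells. In the lysosome LIPA, the acid lipase, frees cholesterol from its esters, and NPC2 hands it to the membrane protein NPC1 for export to the rest of the cell. SOAT1 re-esterifies surplus cholesterol for storage in droplets, whereas ABCA1 and ABCG1 pass it to apolipoproteins and lipoprotein particles outside the cell, and SCARB1, the receptor for high-density lipoprotein, lets it cross the plasma membrane in either direction. NR1H3 and NR1H2 encode the liver X receptors (LXR) alpha and beta, which bind oxysterols and, with a retinoid X receptor, switch on ABCA1, ABCG1 and MYLIP, whose product marks lipoprotein receptors for degradation.

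LXR dimers bind a pair of AGGTCA repeats that lie 4 bases apart, the DR4 element. Sequence 250 bases before to 50 bases after the transcript start was at hand from RefSeq (GRCh38.p14) for 8 of the 10 genes, in 14 windows, and for neither ABCG1 nor SCARB1. With at most 1 mismatch in each repeat, on either strand, a DR4 element was present in 1 of these 8 genes, ABCA1, against 467 of all 27305 genes with a window (1.71%). It lay on the antisense strand 69 to 54 bases before the ABCA1 start, at chr9:104928209-104928224, and reads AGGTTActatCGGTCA with the repeats in capitals. The letters CACGTG, an E-box, stood 147 to 142 bases before the same start and in no window of the other genes, against 7.26% of all windows. TCACNCCAC, the core letters of a sterol regulatory element, was in 0 of the 14 windows, against 1.13% of all windows, and GGGCGG, the letters of a GC box, was in 11 of the 14, against 45% (both strands were searched, and N stands for any base). The 200 bases before the starts of ABCA1 and MYLIP are shown 5′ to 3′ on each gene's own strand because both genes were among the 3 that were lower together in differentiation 2. Capitals mark the E-box and both DR4 repeats in ABCA1, at chr9:104928156-104928355 (minus strand), and the GGGCGG letters in MYLIP, at chr6:16128886-16129085 (plus strand).
ABCA1: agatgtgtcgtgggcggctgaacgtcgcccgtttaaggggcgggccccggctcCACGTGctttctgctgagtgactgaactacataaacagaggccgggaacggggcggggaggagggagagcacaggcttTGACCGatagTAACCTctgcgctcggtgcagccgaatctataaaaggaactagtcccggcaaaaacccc
MYLIP: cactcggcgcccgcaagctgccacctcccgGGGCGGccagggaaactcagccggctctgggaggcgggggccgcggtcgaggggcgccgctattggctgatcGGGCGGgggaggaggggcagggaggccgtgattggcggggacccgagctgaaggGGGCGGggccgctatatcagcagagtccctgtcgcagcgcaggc
A match of letters is a description of the sequence, and binding was not measured.

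Per length of exon, the lysosomal genes NPC2 and LIPA had the highest mean levels of the 10 and the LXR gene NR1H3 the lowest. In TPM (counts divided by the exon length of GENCODE version 44 and scaled to the same sum in every library), the mean level over 12 libraries was 725 ± 141 (SD) for NPC2 and 638 ± 245 for LIPA, above 99.2% and 99.1% of the genes tested. NPC2 exceeded LIPA in 11 of 12 libraries. SOAT1 followed with a TPM level of 78.5 ± 9.57, NR1H2 with 48.1 ± 4.64, NPC1 with 35.6 ± 4.92 and SCARB1 with 23.3 ± 6.02. SOAT1 and NPC1 each stood above the next gene in 12 of 12 libraries and NR1H2 in 11 of 12, whereas SCARB1 stood above ABCA1 in 9 of 12. The length joins all annotated exons of a gene, and was 5341 bases for NR1H2, 9705 for NPC1 and 14887 for SCARB1. In CPM, without division by length, their means were 64.1, 86.6 and 87.7, and LIPA (790) stood above NPC2 (471). The order of these genes thus depends on the length used. The mean TPM level was 14.2 ± 11.3 for ABCA1, 9.70 ± 3.30 for MYLIP, 9.36 ± 9.04 for ABCG1 and 4.37 ± 1.80 for NR1H3, and neighbours in this order did not differ beyond their spread, since each led the next in only 6 or 7 of 12 libraries. Farther apart in the order, ABCA1 stood above NR1H3 in 12, ABCA1 above ABCG1 in 11 and MYLIP above NR1H3 in 11 of 12 libraries. Of the pair of LXR genes, NR1H2 was the higher in TPM level in every library.

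The genes differed in how much they varied. The SD of log2 CPM over 12 libraries was 1.47 for ABCG1 and 1.15 for ABCA1, above that of 97.1% and 94.95% of 17577 genes tested, against a median of 0.27 over those genes. NR1H2 had an SD of 0.095, above 5.45% of genes. NR1H3 (0.56), MYLIP (0.48), LIPA (0.45) and SCARB1 (0.36) were above the median, and NPC2 (0.28), NPC1 (0.21) and SOAT1 (0.20) near or below it. Of the sum of squares of log2 CPM, differentiation took 70.0% for ABCG1, 56.5% for ABCA1 and 53.4% for MYLIP, and genotype 1.54%, 3.85% and 0.493%. For SCARB1, SOAT1, NR1H2, LIPA, NPC1 and NPC2 the largest share lay between clones of the same genotype, from 42.8% for NPC2 to 73.0% for SCARB1.

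**Figure D1:**
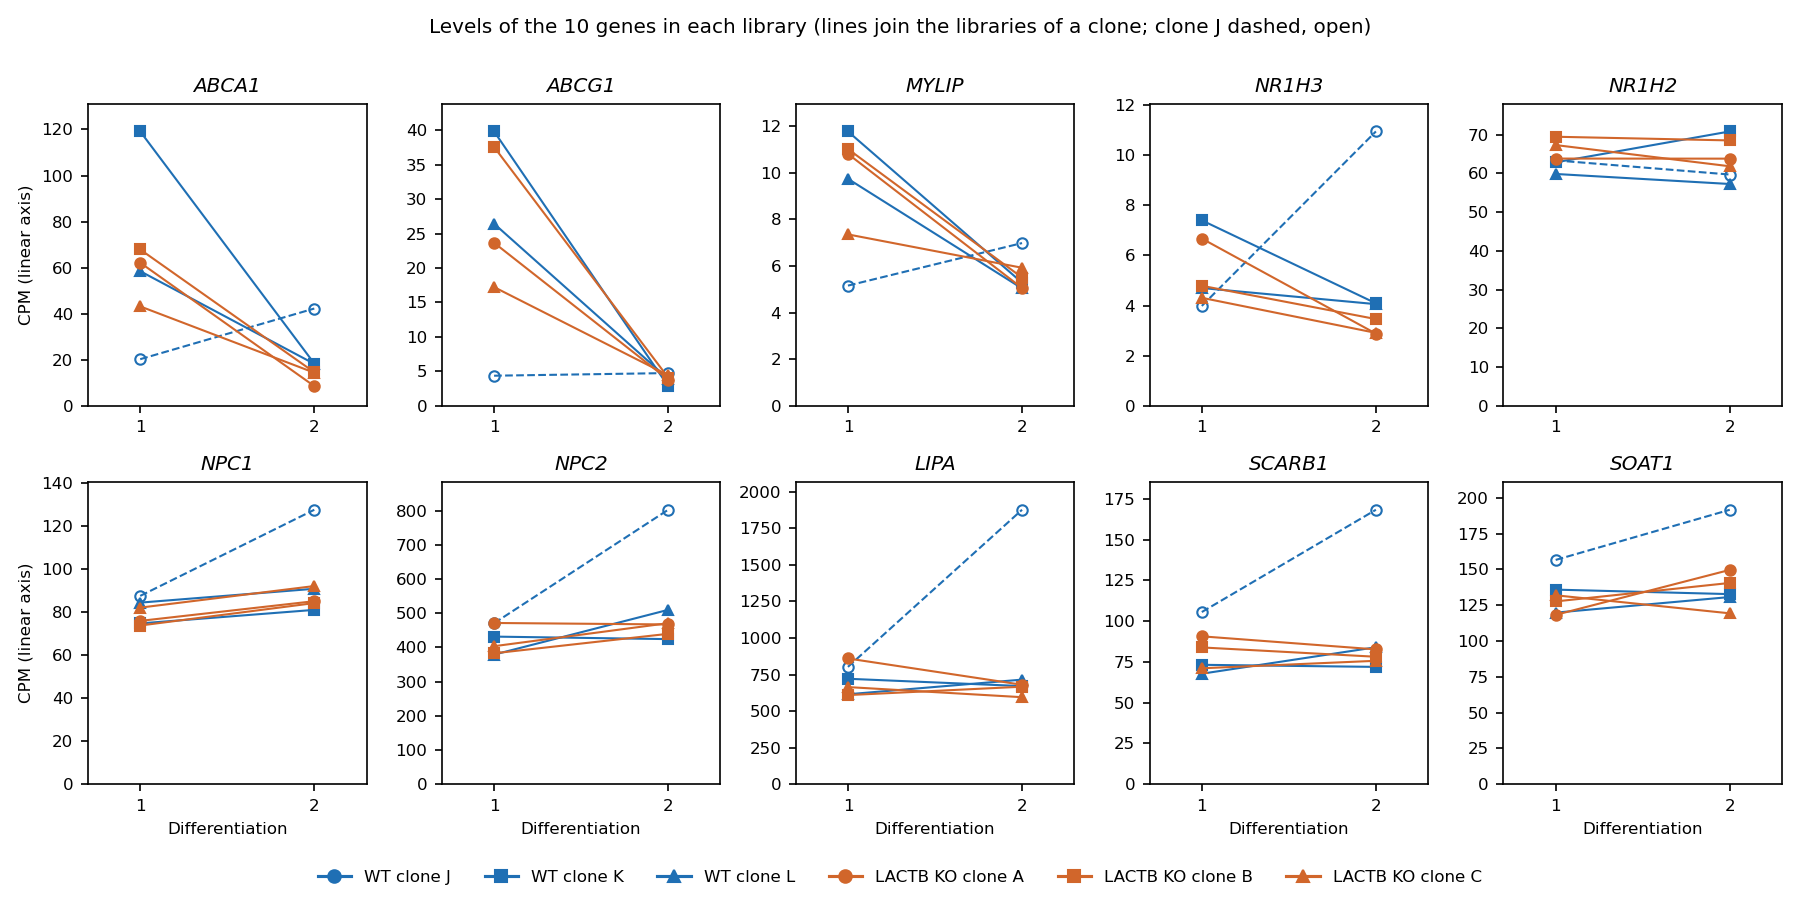
Level of each of the 10 genes in CPM (linear axes from 0) in differentiations 1 and 2, with a line for each clone, WT in blue and LACTB KO in orange. ABCA1, ABCG1 and MYLIP are lower in differentiation 2 in every clone but J (dashed), and clone J lies above all others in LIPA, NPC1, NPC2, SCARB1 and SOAT1 in differentiation 2.

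The comparison of LACTB KO with WT asked whether loss of LACTB alters the transcripts that handle cholesterol. None of the 10 genes passed the test. In edgeR's quasi-likelihood test on 3 clones against 3 clones, 0 of the 10 genes had an adjusted p under 0.05 (0% of 17577 genes tested) and 0 an unadjusted p under 0.05 (6.36% of genes tested, 0.802% higher and 5.56% lower), and their adjusted p-values ran from 0.810 to 0.968. DESeq2 gave 0 of the 10 genes an adjusted p under 0.05 (0.975% of genes it tested) and 1 an unadjusted p under 0.05 (6.9%), and no other alternative called any of the 10 after adjustment. In 0 of the 10 genes did the clone means of the 2 genotypes fail to overlap (4.01% of genes tested had all LACTB KO clones above all WT clones, and 6.28% below). The median log2 fold change was -0.16 over the 10 genes and 0.01 over all genes tested. Because the RNA is bulk, fewer cells of a type and less RNA per cell cannot be told apart in any of these values. The smallest two-sided p an exact permutation of 3 clones against 3 can give is 0.1.

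NR1H3, the inducible LXR of macrophages, had the smallest p of the 10. Its levels were 3.98, 7.40 and 4.70 CPM in J1, K1 and L1, 10.9, 4.09 and 4.05 CPM in J2, K2 and L2, 6.67, 4.79 and 4.31 CPM in A1, B1 and C1, and 2.88, 3.46 and 2.91 CPM in A2, B2 and C2. The highest library was J2, and the 3 LACTB KO libraries of differentiation 2 were the lowest of all 12. The log2 fold change in LACTB KO was -0.50 ± 0.22 (SE; 95% interval -1.03 to 0.03; edgeR p = 0.0612, adjusted p = 0.810; exact permutation p = 0.2), and without the library J2 it was -0.18. In differentiation 1 alone it was -0.03 and in differentiation 2 alone -1.05. Its exons share 4.17% of their bases with ACP2 on the opposite strand, and the kit does not mark strand. ACP2 had a mean of 49.2 ± 14.3 CPM (SD) over the 12 libraries, against 5.02 ± 2.31 CPM for NR1H3. The log2 fold change of ACP2 in LACTB KO was -0.36 ± 0.17 (SE). The part of ACP2 reads in the NR1H3 values was not tested.

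ABCA1, which loads lipid-poor apolipoproteins, also had a lower mean in LACTB KO without passing the test. Its mean was 46.1 ± 39.3 CPM (SD, n = 6 libraries) for WT and 35.1 ± 26.2 for LACTB KO, with overlapping ranges of 18.2 to 119 and 8.52 to 67.9 CPM. The log2 fold change was -0.42 ± 0.29 (95% interval -1.11 to 0.28; edgeR adjusted p = 0.878), -1.08 in differentiation 2 alone, and between -0.64 without clone J and -0.02 without clone K. ABCG1, which exports to mature lipoprotein particles, had a log2 fold change of 0.12 ± 0.52 (95% interval -1.13 to 1.36), and MYLIP one of 0.04 ± 0.17 (95% interval -0.35 to 0.44). For ABCG1 the interval runs from 0.457 to 2.57 times the WT level, so changes within that range are compatible with these data.

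The lysosomal and storage genes and SCARB1 had lower means in LACTB KO, by amounts that rested on 1 WT clone. LIPA had 802, 721 and 615 CPM in J1, K1 and L1, 1878, 671 and 715 CPM in J2, K2 and L2, 860, 609 and 664 CPM in A1, B1 and C1, and 680, 667 and 595 CPM in A2, B2 and C2. J2 lay far above every other library, and the remaining 11 libraries of both genotypes overlapped. For LIPA the log2 fold change was -0.40 ± 0.27 (edgeR adjusted p = 0.878), and -0.08 without J2. NPC1 gave -0.14 ± 0.12, NPC2 -0.19 ± 0.16, SCARB1 -0.24 ± 0.24 and SOAT1 -0.13 ± 0.13, with edgeR adjusted p-values from 0.878 to 0.883. Without clone J the values became -0.01 for LIPA, -0.01 for NPC1, 0.01 for NPC2, 0.11 for SCARB1 and 0.02 for SOAT1. NR1H2, the LXR that most cells express, was the steadiest, with WT libraries at 62.3 ± 4.74 CPM and LACTB KO libraries at 65.8 ± 3.05 CPM (log2 fold change 0.08 ± 0.07, 95% interval -0.09 to 0.26).

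**Figure D2:**
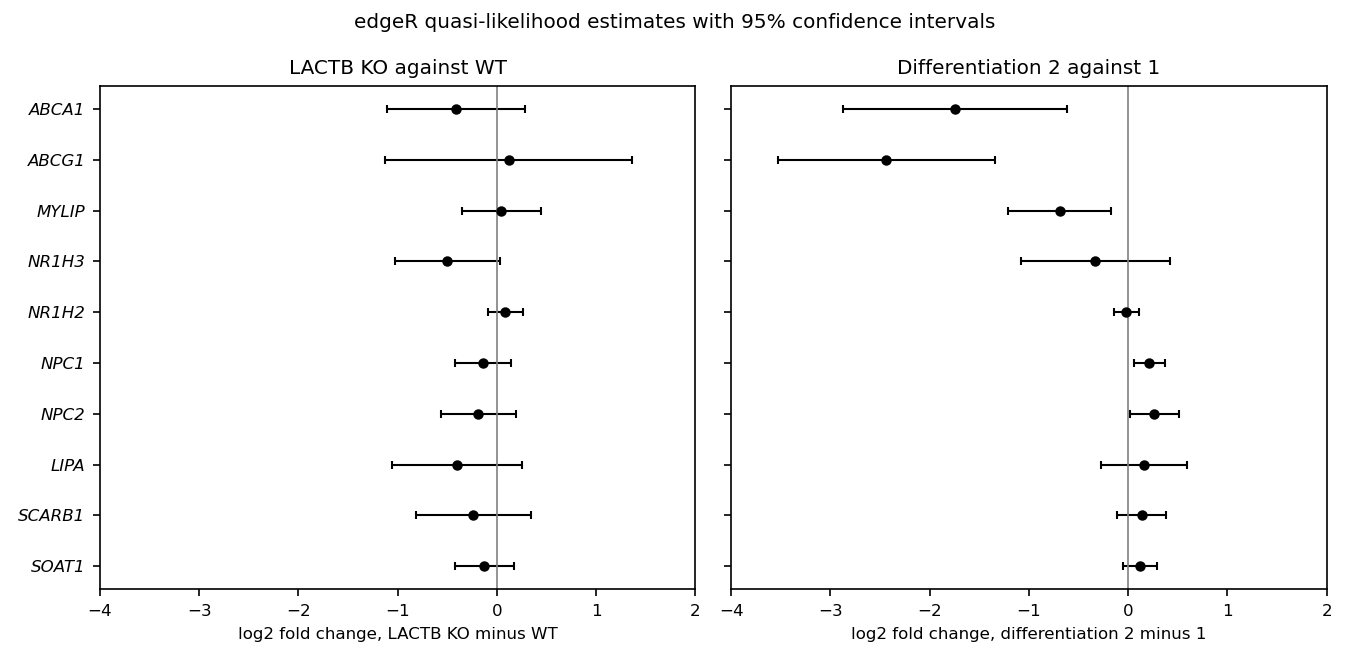
Log2 fold change of each gene with its 95% confidence interval from edgeR, LACTB KO minus WT over 3 against 3 clones on the left and differentiation 2 minus 1 within 6 clones on the right. All 10 intervals on the left cross 0, whereas those of ABCA1, ABCG1, MYLIP, NPC1 and NPC2 on the right do not.

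The library J2 stood apart in the lysosomal and storage genes. It held the highest level of the 12 libraries in 6 of the 10 genes (NR1H3, NPC1, NPC2, LIPA, SCARB1 and SOAT1), against 16.7% of all genes tested. Its NPC2 was 803 CPM, against 379 to 510 CPM elsewhere, its NPC1 128 CPM, against 73.8 to 92.1 CPM, its SCARB1 168 CPM, against 67.7 to 106 CPM, and its SOAT1 192 CPM, against 118 to 157 CPM. The same library held 1818 CPM of APOE, the main lipid acceptor made by microglia, against 92.5 to 318 CPM in the other 11, and 118 CPM of CYP27A1, a mitochondrial oxysterol-forming enzyme, against 2.95 to 6.75 CPM. Of 16 microglial markers 8 were also highest in J2, against 16.7% of all genes tested. They included TREM2, a lipid-sensing receptor, at 409 CPM against 110 to 271 CPM elsewhere, the complement gene C1QB at 911 CPM against 407 to 603 CPM, and TMEM119, a marker of mature microglia, at 10.7 CPM against 0.316 to 1.87 CPM. CSF1R, the growth factor receptor on which microglia depend, was lowest in J2, at 1383 CPM against 1543 to 2041 CPM. PTPRC was lowest there too, at 535 CPM against 562 to 764 CPM. Near the low end of the other libraries lay P2RY12 (65.8 CPM against 61.4 to 131), CX3CR1 (586 against 525 to 1074) and ITGAM (304 against 291 to 486). The part of these markers in the values of J2 was not tested.

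The larger differences ran between the differentiations. ABCA1, ABCG1 and MYLIP, all LXR targets, were lower in differentiation 2 than in differentiation 1 in 5 of 6 clones of both genotypes, while NPC1 and NPC2 were a little higher. By edgeR with clone as a term, 5 of the 10 stood under 0.05 before adjustment (9.13% of 17335 genes tested), 3 of them lower (3.57% of genes tested) and 2 higher (5.57%). After adjustment over all genes 0 of the 10, and 0% of genes tested, were under 0.05. DESeq2 called 2 of the 10 (2.37% of the genes to which it gave an adjusted p), ABCA1 (adjusted p = 0.0361) and ABCG1 (adjusted p = 2.6e-04). Each differentiation is a single batch, so a change in the cells and a change in handling cannot be told apart.

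ABCG1 differed most. In differentiation 1 it had 4.36, 39.8 and 26.4 CPM in J1, K1 and L1 and 23.7, 37.6 and 17.2 CPM in A1, B1 and C1. In differentiation 2 it had 4.75, 2.85 and 3.90 CPM in J2, K2 and L2 and 3.80, 4.09 and 4.44 CPM in A2, B2 and C2. All libraries of differentiation 2 lay in a narrow low range, and among those of differentiation 1 only J1 lay there too, on 115 counts. Over 6 clones ABCG1 had a log2 fold change of -2.43 ± 0.47 (95% interval -3.53 to -1.34; edgeR p = 8.8e-04, adjusted p = 0.238; exact sign-flip permutation p = 0.0625), that is a level 5.41-fold lower. By clone the change was -3.77 in K, -2.74 in L, -2.62 in A, -3.18 in B, -1.94 in C and 0.12 in J on the log2 scale.

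ABCA1 followed the same clones. Its levels were 20.2, 119 and 58.4 CPM in J1, K1 and L1, 62.1, 67.9 and 43.2 CPM in A1, B1 and C1, 42.2, 18.3 and 18.2 CPM in J2, K2 and L2, and 8.52, 14.5 and 14.4 CPM in A2, B2 and C2. Clone J again ran against the others, with a change of 1.06 on the log2 scale, whereas the other 5 clones changed by -2.85 to -1.58. The log2 fold change over 6 clones was -1.75 ± 0.49 (95% interval -2.88 to -0.62; edgeR p = 0.00728, adjusted p = 0.348; exact sign-flip permutation p = 0.0625), a level 3.36-fold lower.

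MYLIP, the LXR target that lowers lipoprotein uptake, had 5.16, 11.8 and 9.75 CPM in J1, K1 and L1 and 10.8, 11.03 and 7.36 CPM in A1, B1 and C1. In differentiation 2 it had 6.99, 5.29 and 5.04 CPM in the WT and 5.06, 5.51 and 5.93 CPM in the LACTB KO libraries. Over 6 clones MYLIP had one of -0.69 ± 0.23 (95% interval -1.21 to -0.17; edgeR p = 0.0157, adjusted p = 0.402; exact sign-flip permutation p = 0.0938). The smallest p that this exact test can give over 6 clones is 0.0313.

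Leaving out clone J altered the calls. J1 lay at the ABCG1 level of differentiation 2, and ABCA1, ABCG1, MYLIP and NR1H3 were higher in J2 than in J1, against the direction in the other 5 clones. The labels of J1 and J2 were kept as given, and whether they are right was not tested. Over the remaining 5 clones the log2 fold change was -2.21 for ABCA1 (edgeR adjusted p = 0.00985), -2.87 for ABCG1 (adjusted p = 0.0077) and -0.91 for MYLIP (adjusted p = 0.114), so that 2 of the 10 were called, against 0.261% of genes tested. In those 10 libraries ABCA1, ABCG1, MYLIP and NR1H3 had every library of differentiation 2 below every library of differentiation 1, which makes 4 of the 10 genes, against 1.15% of genes tested below and 2.3% above, and NR1H3 had a log2 fold change of -0.67 (edgeR adjusted p = 0.320). No other clone was left out for this count. Clone J was the one in which these 4 genes ran the other way, so leaving it out favours them over the share of all genes. In all 12 libraries no gene of the 10 was separated in this way (0.254% of genes tested lay below and 0.669% above). Leaving out any other single clone left ABCA1 and ABCG1 above the threshold after adjustment. J1 also held the most stromal transcripts, 15436 CPM over 18 stromal genes against 139 to 10881 CPM in the other libraries. With the stromal level as a covariate the log2 fold changes were -1.64 for ABCA1 (edgeR adjusted p = 0.198) and -2.36 for ABCG1 (adjusted p = 0.0762). K2, with 10881 CPM of stromal transcripts, had the lowest ABCG1 of all libraries, 2.85 CPM. C2, with the fewest stromal transcripts (139 CPM), had 4.44 CPM of ABCG1, also in the low range of differentiation 2. Within the 6 libraries of differentiation 1, of which J1 had the highest stromal level, Pearson's r of log2 CPM with the mean stromal level was -0.80 for ABCA1, -0.82 for ABCG1, -0.72 for MYLIP and 0.73 for NPC1. Within differentiation 2 it was 0.45, -0.51, 0.18 and 0.0046. These values describe 6 libraries each and carry no test.

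NPC1 was the gene of the 10 that differed in the same direction in every clone. It had 73.8 to 87.6 CPM in the 6 libraries of differentiation 1 (median 79.0) and 81.1 to 128 CPM in those of differentiation 2 (median 88.0), and the ranges overlapped. The log2 fold change was 0.21 ± 0.07 (95% interval 0.06 to 0.37; edgeR p = 0.0135, adjusted p = 0.388), with 6 of 6 clones higher (3.44% of genes tested, with 2.65% lower in 6 of 6) and an exact sign-flip permutation p of 0.0313. NPC2 gave 0.26 ± 0.11 (edgeR p = 0.0407, adjusted p = 0.517; exact sign-flip permutation p = 0.125) with 4 of 6 clones higher, and 0.16 without clone J. LIPA (0.16 ± 0.19), SCARB1 (0.14 ± 0.11), SOAT1 (0.12 ± 0.07), NR1H3 (-0.33 ± 0.33) and NR1H2 (-0.02 ± 0.05) had intervals that include 0. For NR1H2 the interval of -0.15 to 0.11 corresponds to 0.904 to 1.08 times the level of differentiation 1.

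Whether the change between differentiations depended on genotype was tested as an interaction. None of the 10 genes, and 0% of 17335 genes, had an adjusted p under 0.05 in edgeR, and 0 of the 10 stood under 0.05 before adjustment (0.986% of genes tested). SCARB1 came nearest (difference of log2 changes, LACTB KO minus WT, -0.36 ± 0.19; edgeR p = 0.0936, adjusted p = 1; exact permutation p = 0.2). For ABCA1 the value was -1.03 ± 0.94, and -0.03 without clone J. Without clone K, 5 of the 10 genes fell under 0.05 before adjustment, as did 7.76% of all those tested, and none after it.

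Across the 12 libraries the genes formed groups whose levels varied together. ABCA1, ABCG1 and MYLIP had Pearson correlations of log2 CPM from 0.89 to 0.96 with each other, and these were 0.95 to 0.97 over the 10 libraries without clone J. Within differentiation 1 they were 0.95 to 0.96. Within differentiation 2 they were lower, at 0.31 for ABCA1 with ABCG1, 0.64 for ABCG1 with MYLIP and 0.78 for ABCA1 with MYLIP. NPC1, NPC2, LIPA, SCARB1 and SOAT1 had correlations of 0.72 to 0.93 over 12 libraries, but of -0.35 to 0.56 without clone J, so that their likeness rested on that clone. NR1H3 followed LIPA (0.77) and ABCA1 (0.74) over 12 libraries, and ABCA1 (0.91) more than LIPA (0.57) without clone J. NPC1 ran against ABCA1, ABCG1 and MYLIP without clone J (-0.75, -0.73 and -0.77). With clone J included, these were -0.81, -0.80 and -0.84 within differentiation 1 but 0.82, 0.70 and 0.88 within differentiation 2. NR1H2 had correlations of -0.04 to 0.07 with ABCA1, ABCG1 and MYLIP over 12 libraries. The libraries share differentiation and clone, so that these values describe the series and carry no test.

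**Figure D3:**
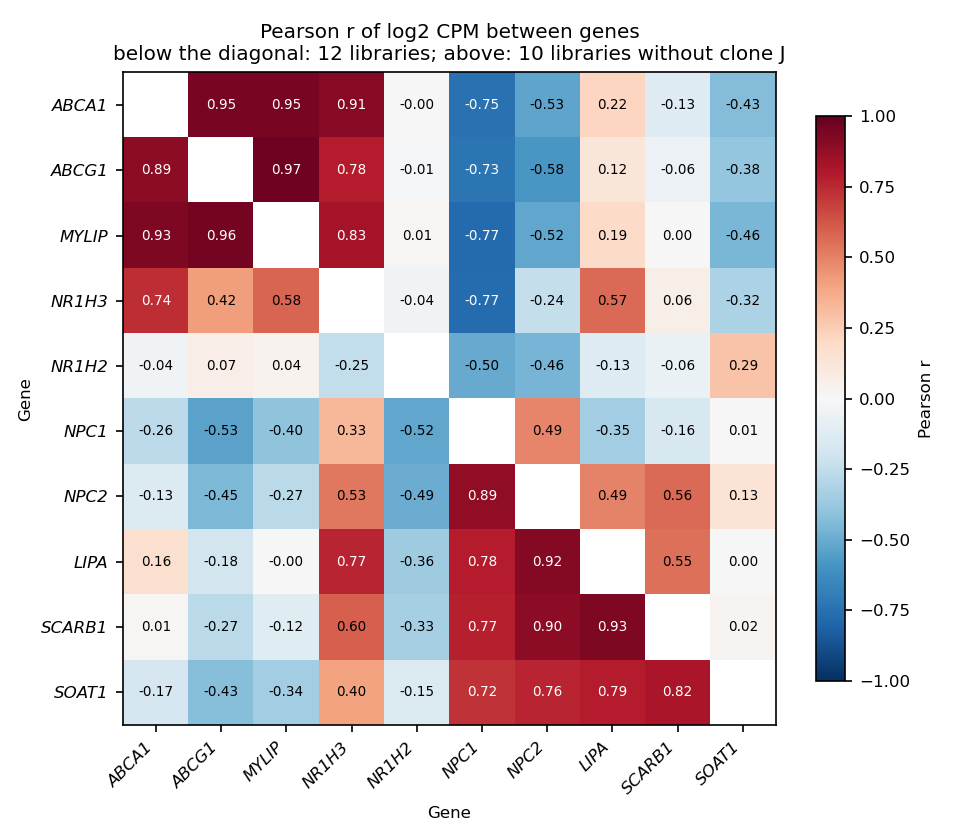
Pearson r of log2 CPM between each pair of the 10 genes, over 12 libraries below the diagonal and over the 10 libraries without clone J above it. The block of ABCA1, ABCG1 and MYLIP is dark in both triangles, whereas the block of NPC1, NPC2, LIPA, SCARB1 and SOAT1 is dark below the diagonal only.

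Among 17553 other genes, the nearest to ABCA1 over the 12 libraries was SMPDL3A (r = 0.96), an LXR target that encodes a secreted phosphodiesterase. CORO7, which encodes a coronin of the Golgi, was the nearest to ABCG1 (r = 0.97), MYLIP came next (r = 0.96), and the nearest to MYLIP were ABCG1 and then CORO7 (r = 0.94). NR1H3 lay nearest to CD36 (r = 0.96), the scavenger receptor for oxidised lipoproteins, and then to ARHGAP10 (r = 0.90). For the genes that J2 raised, the nearest were F8 and ZDHHC14 to NPC1 (r = 0.97 and 0.96), LAIR1 to NPC2 (0.96), DTNB and TBC1D16 to LIPA (both 0.97), MGAT1 and M6PR to SCARB1 (both 0.97) and SLC1A3 and CRYBB1 to SOAT1 (0.97 and 0.96). Without clone J these correlations ran from 0.71 to 0.94. NR1H2 had no close partner, ENSG00000267422 on chromosome 19 (r = 0.87) and RTL8B (r = 0.85) being the nearest.

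Other textbook LXR targets did not move as one between the differentiations. Of 12 genes on that list 9 were tested, of which 2 had an unadjusted p under 0.05 and were lower and 3 were higher (3.57% and 5.57% of all genes tested), and the list median was 0.00 on the log2 scale against -0.00 over all genes. The lower ones were SMPDL3A (-0.72 ± 0.25) and LPCAT3 (-0.34 ± 0.12), which remodels phospholipids, each in 5 of 6 clones. The higher ones were SCD (0.83 ± 0.10) and FASN (0.79 ± 0.15), enzymes of fatty acid synthesis, and SREBF1 (0.17 ± 0.05), whose product SREBP-1 drives the genes of that pathway, each in 6 of 6 clones. In edgeR the adjusted p-values of these genes ran from 0.103 to 0.439. SCD and FASN passed with DESeq2 (adjusted p = 4.0e-14 and 1.3e-05), without an expression filter (adjusted p = 0.0015 and 0.0102) and without clone J (adjusted p = 0.0072 and 0.0187). APOE had no net change (0.00 ± 0.58), since its log2 change was 3.09 in clone J and between -1.53 and 1.08 in the others.

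Among oxysterol-forming and oxysterol-conjugating enzymes, 4 of 6 genes were tested between the differentiations and CH25H, which makes 25-hydroxycholesterol, was higher in 6 of 6 clones (log2 fold change 1.38 ± 0.43; edgeR p = 0.0120, adjusted p = 0.385; exact sign-flip permutation p = 0.0313) at a level under 2 CPM in every library. Of 25 genes of lysosomal and inter-membrane sterol transport 23 were tested, of which 5 had an unadjusted p under 0.05 and were higher (5.57% of all genes tested), 0 were lower (3.57%), and 19 had a positive fold change (median 0.11). The largest value was that of STARD4 (0.76 ± 0.15; edgeR adjusted p = 0.246; 5 of 6 clones), a carrier of cholesterol between membranes, which passed with DESeq2 (adjusted p = 9.9e-05), without an expression filter (adjusted p = 0.0112) and without clone J (adjusted p = 0.0203). OSBPL1A, TMEM97, VPS13C and LYST were the other 4, of which VPS13C passed with DESeq2 (adjusted p = 0.0219). Of 13 genes of cholesteryl ester and neutral lipid storage 11 were tested and 2 were higher at an unadjusted p under 0.05 (5.57% of all genes tested), G0S2 (1.44 ± 0.56), an inhibitor of the lipase ATGL, and PLIN3 (0.17 ± 0.05), a droplet coat protein. Of 10 tested genes of lipid efflux 1 was lower at that threshold (3.57%), LCAT (-0.52 ± 0.21), the enzyme that esterifies cholesterol on lipoproteins, and ABCA7 was not called. Of 9 tested LXR partners and co-regulators 1 was higher (5.57%), EP300 (0.20 ± 0.08). None of 5 MYLIP partners had an unadjusted p under 0.05. No gene of these lists had an adjusted p under 0.05 in edgeR.

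**Figure D4:**
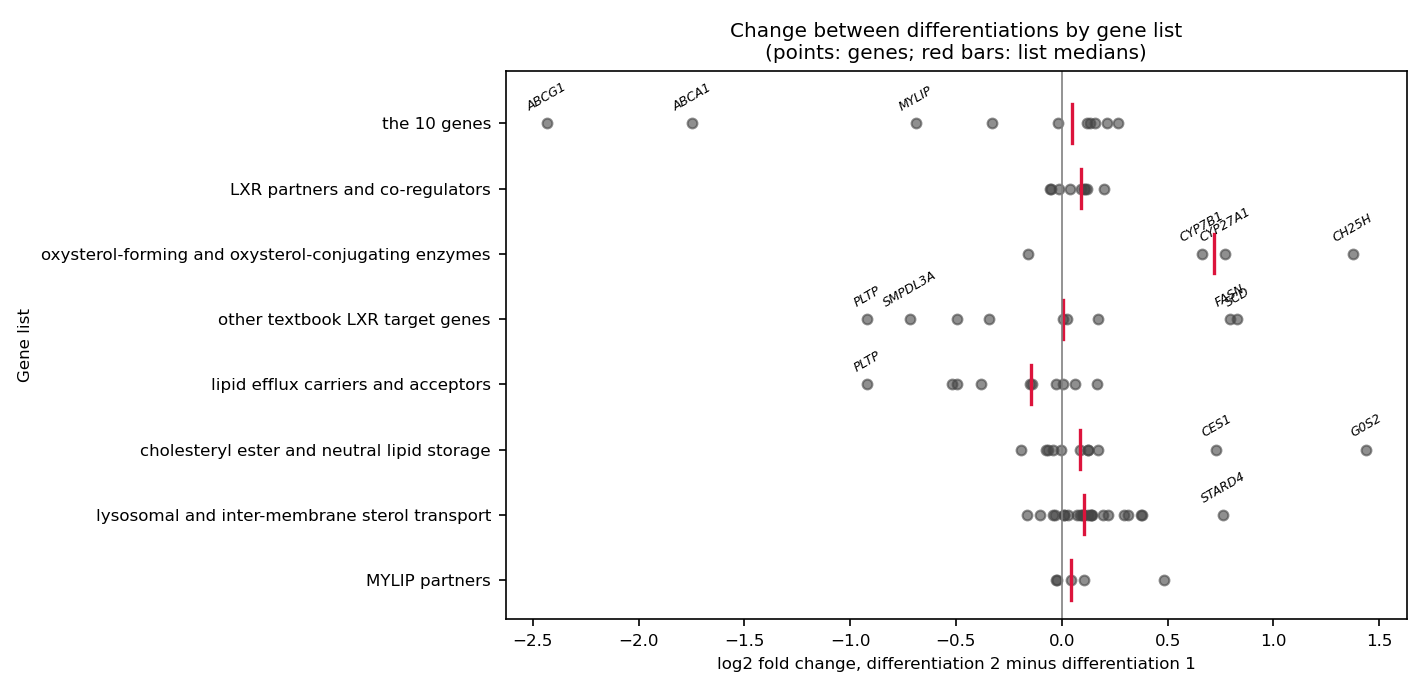
Log2 fold change between differentiations 2 and 1 for each tested gene of 8 gene lists (points) with the list medians (red bars). ABCG1, ABCA1, PLTP, SMPDL3A and MYLIP lie farthest to the left, and G0S2 and CH25H farthest to the right.

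In LACTB KO against WT no gene of these lists had an adjusted p under 0.05 in edgeR, and 4 had an unadjusted p under 0.05, all of them lower (5.56% of all genes tested were lower at that threshold and 0.802% higher). VLDLR, a lipoprotein receptor that MYLIP marks, had a log2 fold change of -2.19 ± 0.52 (edgeR p = 0.00408, adjusted p = 0.726; exact permutation p = 0.1), with 0.606 to 7.44 CPM across WT and 0.335 to 1.59 across LACTB KO libraries, and of -0.80 with the stromal level as a covariate. CES1, a carboxylesterase, gave -2.47 ± 0.67 (edgeR p = 0.00805, adjusted p = 0.726; exact permutation p = 0.1) and -1.41 without J2. CYP27A1 gave -2.67 ± 1.01 (edgeR p = 0.0340, adjusted p = 0.754; exact permutation p = 0.1) and -0.49 without J2. CYP46A1 rested on 0 to 15 counts a library. DESeq2 gave an adjusted p of 0.00764 for VLDLR and of 0.0102 for CES1 (0.975% of the genes it tested were under 0.05).

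The other genes that led each list had the following values, none under an unadjusted p of 0.05. Among LXR partners, RXRA, the obligate partner of both LXRs, gave 0.15 ± 0.11, and the corepressor NCOR1 gave 0.06 ± 0.09. APOE gave -1.58 ± 0.72 and -0.31 without J2, PLTP, which transfers phospholipid between lipoproteins, -0.88 ± 0.41, and LPCAT3 0.18 ± 0.15. CETP (0.49 ± 0.23) and ABCA7 (-0.09 ± 0.14) are carriers and exporters of lipid. In storage, G0S2 gave -0.79 ± 0.41 and PLIN2 -0.27 ± 0.14. The lysosomal membrane protein SCARB2 gave -0.46 ± 0.24, and the oxysterol-binding proteins OSBPL5 and OSBPL2 gave -0.72 ± 0.33 and -0.14 ± 0.07. LRP8 gave 0.04 ± 0.08, the MYLIP partners UBE2D2, USP2 and UBE2D1 gave 0.11 ± 0.09, -0.54 ± 0.43 and -0.05 ± 0.10, and CH25H gave 0.43 ± 0.38. Several of these values rested on 1 clone or library. Without clone J the log2 fold change was 0.064 for RXRA, 0.047 for LPCAT3, -0.41 for G0S2, -0.14 for SCARB2 and 0.048 for UBE2D2, and without J2 it was -0.065 for PLIN2 and -0.57 for PLTP. Without clone K it was 0.24 for RXRA, -0.50 for PLTP, 0.79 for CH25H and 0.19 for UBE2D2, and without clone L 0.22 for CH25H. Without LACTB KO clone B it was -0.98 for USP2 and -0.17 for PLIN2, without clone C -0.19 for USP2 and 0.28 for LPCAT3, and without clone A 0.067 for LPCAT3. The medians of the lists of 5 to 25 genes lay between -0.18 and 0.03, apart from -1.25 over the 3 tested oxysterol enzymes.

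The libraries carried the markers of microglia. The 16 microglial genes summed to between 7637 and 8900 CPM, with CSF1R at 1383 to 2041 CPM, P2RY12 at 61.4 to 131 CPM and 15 of 16 above 1 CPM in every library, the exception being TMEM119. The 18 stromal genes summed to between 172 and 15436 CPM in WT and between 139 and 2176 CPM in LACTB KO. Of the 16 tested, 15 were lower in LACTB KO at an unadjusted p under 0.05 in edgeR (5.56% of all genes tested), and 0 passed after adjustment. The high WT values were those of J1 (15436 CPM) and K2 (10881 CPM), and the other WT libraries held 172 to 1373 CPM. Correlations of the 10 genes with the mean stromal level over 12 libraries lay between -0.37 and 0.38, and their part in the values above was not tested beyond the fit with the stromal covariate. Of 8 endothelial genes PECAM1 alone, which myeloid cells also express, was above 1 CPM in every library. The mast cell and granulocyte genes summed to 3.55 to 28.3 CPM, mostly KIT (1.72 to 27.9 CPM), the erythroid and megakaryocyte genes to 4.90 to 10.6 CPM, mostly ITGA2B (3.60 to 9.97 CPM), and the pluripotency genes to 0.144 to 0.877 CPM. The 8 genes of lipoprotein-secreting hepatocytes summed to between 182 and 313 CPM, APOB and SERPINA1 the most abundant. Of these 8 genes 7 were above 1 CPM in every library. They included ALB (22.8 to 53.6 CPM), AFP (16.5 to 38.4 CPM) and APOA1 (16.8 to 28.5 CPM). The source of these transcripts was not tested.

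Positions follow GRCh38. ABCA1 lies at chr9:104781006-104928155 (minus strand), ABCG1 at chr21:42199689-42297244 (plus), MYLIP at chr6:16129086-16148248 (plus), NR1H3 at chr11:47248300-47269033 (plus) and NR1H2 at chr19:50329653-50383388 (plus). NPC1 lies at chr18:23506184-23586506 (minus), NPC2 at chr14:74476192-74494177 (minus), LIPA at chr10:89213569-89414557 (minus), SCARB1 at chr12:124776856-124882668 (minus) and SOAT1 at chr1:179293714-179358680 (plus). All 10 are annotated as protein-coding. Exons on the opposite strand overlap 22.1% of the exon bases of NR1H2 (NAPSA), 7.52% of SCARB1 (a long non-coding RNA), 6.38% of NPC1 (RMC1) and 3.99% of NPC2 (ISCA2), so that reads there could belong to either gene. NAPSA had only 4 to 18 counts in a library, against 1511 to 2010 for NR1H2. The mean level was 24.2 CPM for RMC1 against 86.6 for NPC1, and 14.8 CPM for ISCA2 against 471 for NPC2. For LIPA the overlaps with IFIT2, IFIT3 and a long non-coding RNA took 1.33%, 1.92% and 2.76%. ABCA1, ABCG1, MYLIP and SOAT1 share no exon base with another gene.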

How the data were processed

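Bulk polyA RNA-seq of 12 WTC11 iMGL libraries was analysed. Per the paper's methods and the labels, the authors used a TruSeq kit, read both ends of each fragment, removed adapters with Cutadapt and ran STAR against hg38. They deposited estimated counts per gene, unscaled, of which 10.8% to 11.5% in a library had any fractional part (over all 62703 rows, zeros included). The counting tool, its annotation and its strand setting are not given in the sources used here. R 4.3.3 is named in the submitters' processing notes.

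The plan had assumed whole counts, so values were rounded. LACTB KO and WT were compared on counts summed per clone with edgeR 4.0.16 (TMM, filterByExpr, quasi-likelihood, Benjamini-Hochberg over all genes, threshold 0.05), where the study had used DREAM. Differentiations and the interaction were fitted on 12 libraries with clone as a term. A prior count of 2 entered the log2 CPM levels. The steps were tested on simulated data with 200 changed genes. For LACTB KO against WT, 74 of 200 changes of 2-fold were recovered with 9 false calls. At 4-fold, 163 of 200 were recovered with 14 false calls. For the differentiations, 112 of 200 changes of 2-fold were recovered with 9 false calls, and 163 of 200 of 4-fold with 8. Many 2-fold changes were thus missed. Alternatives used DESeq2 1.42.0, limma 3.58.1 and lmerTest 3.1.3. GENCODE version 44 (62686 of 62703 identifiers found) gave positions and exon lengths. Replicates are clones. In the main fit of LACTB KO against WT the p-values measure the spread between clones of a genotype. In the main fits of the differentiations and the interaction they measure how the change varied from clone to clone. With 2 differentiations, each a single batch, no p-value measures whether a change would recur in further differentiations. All intervals are 95%.

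The 10 genes, the pathway lists and the marker lists were chosen with earlier results of these data known. The text names the 10 genes, the 3 genes of each list with the smallest p in LACTB KO against WT, every list gene with an adjusted p under 0.05, APOE, ABCA7, and the 2 nearest genes of each of the 10. Some genes that this rule names are not reported here. List genes named between differentiations were chosen after their values were seen. Same-numbered libraries of different genotypes did not deviate together after genotype means were removed (mean correlation 0.0323 over 18 pairs), so the differentiation block is an alternative.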

Additional observations from a re-analysis of the deposited data

Results flagged for a closer look

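In groups of 6 libraries, a library was far from the others, by Dixon's criterion (the gap to the nearest library over the group's range, against the 95% critical value for 6 samples), in 4 of 20 groups, where chance gives about 1 in 20. The groups are not independent, since the genes share libraries. Within a group the 6 libraries are pairs from the same clones, so the rate of 1 in 20 need not hold. J2 was the highest WT library with a ratio of 0.852 for LIPA, 0.695 for NPC1 and 0.691 for NPC2. A1 was the highest LACTB KO library for LIPA, with a ratio of 0.679 (860 CPM against 595 to 680 CPM in the other 5). What set these libraries apart was not tested. No gene of the 10 changed in opposite directions between the differentiations in every WT and every LACTB KO clone, and none passed the test of the interaction.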

How the results depend on the processing

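In LACTB KO against WT, 0 of the 10 genes had an adjusted p under 0.05 under any of 19 alternatives. At an unadjusted p under 0.05 there was 1 of the 10 without an expression filter, 1 with DESeq2, 2 in differentiation 2 alone, 1 without the libraries J1 and K2, and 0 to 1 when 1 clone was left out. Over all genes the adjusted calls were 0, but 2 without a filter, 171 with DESeq2 and 0 to 1 with 1 clone left out. The unadjusted calls were 1118, but 2039 without a filter, 731 with limma voom, 415 with a mixed model, 505 and 527 in differentiations 1 and 2 alone, 337 with the stromal covariate, 453 without J1 and K2, 1686 with clone pairs as a block, and 515 to 1986 with 1 clone left out. With the differentiation number as a replicate block on 12 libraries, 0 of the 10 genes and 0 genes in all were called after adjustment and 1200 before it.

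Directions turned in LACTB KO against WT as follows. With the stromal covariate the log2 fold change was -0.30 for ABCG1, -0.11 for MYLIP and -0.013 for NCOR1, and without J1 and K2 it was -0.43 for ABCG1, -0.21 for MYLIP and 0.18 for OSBPL5. In differentiation 1 alone it was -0.010 for RXRA, 0.21 for G0S2, 0.19 for PLIN2, -0.037 for LRP8 and 0.076 for UBE2D1, and in differentiation 2 alone -0.074 for MYLIP, -0.022 for LPCAT3 and 0.027 for ABCA7. Without J2 it was -0.021 for LRP8. With 1 clone left out it ran from -0.30 to 0.57 for ABCG1, -0.084 to 0.17 for MYLIP, -0.29 to 0.011 for NPC2, -0.39 to 0.11 for SCARB1, -0.22 to 0.019 for SOAT1, -0.018 to 0.12 for NCOR1, -0.011 to 0.090 for LRP8, -0.11 to 0.026 for UBE2D1 and -0.19 to 0.014 for ABCA7.

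Between differentiations the adjusted calls among the 10 genes were 1 without a filter, 2 with DESeq2, 2 without WT clones J and K (an alternative chosen after seeing the data, as was leaving out J2) and 0 to 2 with 1 clone left out. The 5 unadjusted calls became 0 in WT clones alone. Over all genes 80 were called after adjustment without a filter, 299 with DESeq2, 2 with no replicate block for clone, 22 without J and K, 1 with the stromal covariate and 0 to 44 with 1 clone left out, and the unadjusted calls were 692 in WT alone, 806 in LACTB KO alone and 988 to 1848 with 1 clone left out. In WT alone NR1H3 gave 0.11 and NR1H2 0.0036. In LACTB KO alone LIPA gave -0.11, SCARB1 -0.038 and APOE -0.64, and without J and K LIPA gave -0.024 and APOE -0.22. With 1 clone left out NR1H2 ran from -0.043 to 0.0092, LIPA from -0.054 to 0.27 and APOE from -0.50 to 0.36. For the interaction 377 genes had an unadjusted p under 0.05 without a filter and 72 to 1325 with 1 clone left out, with 0 to 5 of the 10 genes among them. ABCG1 ran from -1.26 to 0.68, MYLIP from -0.56 to 0.25, NPC1 from -0.17 to 0.061, NR1H2 from -0.10 to 0.011 and SOAT1 from -0.14 to 0.10. The cause of these changes was not tested. Over the 10 genes and all alternatives, 178 values in LACTB KO against WT kept their direction and call and 12 turned, 126 kept, 7 passed the threshold and 7 turned between differentiations, and 74 kept and 6 turned for the interaction.

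With 3 clones a genotype, the intervals for ABCG1 and ABCA1 are wide. Each gene had at least 78 counts in every library.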
